A study of Homo sapiens with 6 samples.

Results

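The 52 genes described here encode the kinases, cyclins, motor proteins and chromosome-binding complexes that carry a cell through mitosis. They were taken from a list of symbols by exact match to the gene symbols of the deposited table, which found all 52 among its 46427 genes. The list holds 17 kinases, cyclins and their regulators, 4 proliferation factors, 12 kinesins, 4 spindle-associated proteins, 4 cytokinesis genes, 6 genes of cohesin and of its removal, and 5 condensin subunits. All 52 passed the filter on low counts, as did 18366 genes of the table.

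RNA was sequenced from HCT116 cells, an epithelial line from a colorectal carcinoma, either wild type for *ZKSCAN3* (*ZK3*-WT, n = 3) or with both alleles mutated (*ZK3*-KO, n = 3), the latter by a CRISPR/Cas9 deletion of the start codon in exon 1. ZKSCAN3 is a zinc finger transcription factor, and the comparison addressed which transcripts depend on it. Both groups grew without other treatment in DMEM with 10% serum. The *ZK3*-KO cells went through puromycin selection and single-cell cloning, which is not described for the *ZK3*-WT cells, so the genotype and the history of a clone cannot be told apart, and the p-values below measure the spread among the 3 libraries of each group.

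Each library held between 60827060 and 69739215 reads counted on genes, and each of the 52 genes between 870 and 69199 reads in every library, so counting error was small beside the spread among replicates. *ZKSCAN3* mRNA was measured at 28.1, 23.4 and 19.8 CPM (reads relative to library size, after TMM scaling) in *ZK3*-WT and 25.4, 24.9 and 13.6 CPM in *ZK3*-KO, with a log2 fold change of -0.16 (SE 0.27). Loss of a start codon leaves a transcript to be counted, so this level is no check of the labels. Of 8 epithelial markers 7 passed the filter, with summed levels of 2951 to 3743 CPM in *ZK3*-WT and 2741 to 5448 CPM in *ZK3*-KO, the highest in *ZK3*-KO replicate 3. The villin gene *VIL1* stayed under 1 CPM, and the keratin gene *KRT20*, which passed the filter, was at only 0.55 to 1.84 CPM. Of 9 markers of blood, endothelial and stromal cells, 8 were under 1 CPM in every library. The ninth, the collagen gene *COL1A1*, was at 52.5, 44.2 and 56.3 CPM in *ZK3*-WT and at 49.7, 32.2 and 98.8 CPM in *ZK3*-KO, again highest in replicate 3, and the part of other cells in the results was not tested. *ZK3*-KO replicate 3 stood apart from the other *ZK3*-KO libraries in the genes described here, so calls, medians and list counts are given with and without it, and the plot of fold changes shows every member both ways. It was singled out by the values of these same genes, so calls and adjusted p-values without it are a description and no independent test.

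Entry into mitosis is driven by CDK1 bound to a B-type cyclin, held back by the kinases WEE1 and PKMYT1 and released by the CDC25 phosphatases. Polo and Aurora kinases build the spindle, kinesins move along its microtubules, condensin compacts the chromosomes, and cohesin ties sister chromatids together until separase cuts it. Messenger RNA of many of these genes is low early in the cell cycle and high before division, under MYBL2, FOXM1 and the MuvB complex, which binds a promoter element called CHR that often lies downstream of CCAAT boxes. In RNA from a whole culture, a change in the share of cells near division and a change in RNA per cell cannot be told apart.

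The promoters of the genes that the results turn on are shown as a description. Whether their motifs bear on the levels in the libraries was not tested. Each stretch runs from 110 bases before to 50 bases after a transcription start (RefSeq, GRCh38.p14), 5′ to 3′ on the gene's strand. Capitals mark the CHR letters TTTGAA and the CCAAT box on either strand, where the opposite strand reads TTCAAA and ATTGG. *CDK1* (chr10:60778368-60778527, plus strand) and *PLK1* (chr16:23678779-23678938, plus) stand for the kinases. *CDC25C* (chr5:138331755-138331914, minus) and *KIF18A* (chr11:28108107-28108266, minus) had the lowest fold changes of their groups. *DLGAP5* (chr14:55191536-55191695, minus) and *KIF22* (chr16:29790641-29790800, plus) had the lowest p-values of all 52 genes, and *NCAPD2* (chr12:6493992-6494151, plus) the lowest fold change.
CDK1: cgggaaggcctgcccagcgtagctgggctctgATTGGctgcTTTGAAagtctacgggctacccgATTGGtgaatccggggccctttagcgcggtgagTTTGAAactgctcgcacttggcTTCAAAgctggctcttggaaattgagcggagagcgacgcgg
PLK1: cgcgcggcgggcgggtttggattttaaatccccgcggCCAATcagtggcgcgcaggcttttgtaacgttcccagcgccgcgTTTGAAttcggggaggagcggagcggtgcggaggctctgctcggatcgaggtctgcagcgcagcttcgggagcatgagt
CDC25C: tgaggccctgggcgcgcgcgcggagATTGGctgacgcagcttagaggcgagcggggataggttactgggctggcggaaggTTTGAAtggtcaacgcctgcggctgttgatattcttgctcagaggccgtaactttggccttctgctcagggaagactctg
KIF18A: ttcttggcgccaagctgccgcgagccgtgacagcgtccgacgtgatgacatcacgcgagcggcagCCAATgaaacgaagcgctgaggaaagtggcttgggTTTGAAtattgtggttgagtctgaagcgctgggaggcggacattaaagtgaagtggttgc
DLGAP5: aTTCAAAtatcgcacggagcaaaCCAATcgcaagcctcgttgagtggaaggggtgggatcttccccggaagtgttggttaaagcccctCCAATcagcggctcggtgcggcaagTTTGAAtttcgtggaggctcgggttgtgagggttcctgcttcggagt
KIF22: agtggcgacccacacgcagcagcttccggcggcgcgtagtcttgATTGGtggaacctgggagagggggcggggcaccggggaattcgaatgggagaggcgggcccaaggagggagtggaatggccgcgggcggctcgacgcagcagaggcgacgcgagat
NCAPD2: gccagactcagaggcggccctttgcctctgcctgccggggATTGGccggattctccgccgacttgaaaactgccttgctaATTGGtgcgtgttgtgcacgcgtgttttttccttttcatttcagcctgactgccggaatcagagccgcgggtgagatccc

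A match to TTTGAA on either strand stood within these stretches of *CDK1*, *PLK1*, *CDC25C*, *KIF18A* and *DLGAP5*. No such match stood in those of *KIF22* and *NCAPD2*, though *NCAPD2* had one further upstream, at base -145. Only these exact letters were searched, so other forms of the element were not counted here or below, and a stretch without a match may hold one. RefSeq promoters were at hand for 44 of the 52 genes, as 59 windows of 300 bases. The CHR letters were found in 34 windows (57.6%), against 15.2% of 35116 windows of all genes. Within the 100 bases around the start they were found in 25 windows (42.4%), against 4.62% of all windows. A CCAAT box stood in 39 windows (66.1%) against 34.6%, and both a CHR match in the 100 bases around the start and a CCAAT box in 20 (33.9%) against 1.86%. By gene with a promoter, a CHR match near a start was present in 6 of 12 kinases, cyclins and regulators, 1 of 3 proliferation factors, 8 of 12 kinesins, 3 of 4 spindle-associated genes, 3 of 3 cytokinesis genes, 1 of 5 cohesin genes and 2 of 5 condensin genes. Matches of one motif that share letters were each counted, and a match of letters is a description of a window, not a binding site.

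No member of the list passed an adjusted p of 0.05 in the comparison of all 6 libraries (edgeR's quasi-likelihood test, Benjamini-Hochberg over 18366 genes), where 2.05% of all tested genes did. The lowest adjusted p among the members was 0.155. Of the 52 fold changes, 46 were above 0 and 6 below, with a median log2 fold change of 0.33 beside 0.02 over all tested genes. Leaving out 1 library moved this median widely, from 0.15 without *ZK3*-KO replicate 2 to 0.59 without *ZK3*-KO replicate 3. An unadjusted p under 0.05 was reached by 4 members, *DLGAP5*, *KIF22*, *CDC25A* and *SMC3*, all higher in *ZK3*-KO, which is a smaller share than the 18.4% of all tested genes. Only *KIF22* had groups that did not overlap with *ZK3*-KO above, where 12.7% of tested genes did, and no member had them with *ZK3*-KO below, against 13.8%. Between libraries of the same replicate number, *ZK3*-KO was above in all 3 pairs for 7 members (*DLGAP5*, *KIF22*, *CCNB1*, *PLK1*, *AURKA*, *PTTG1* and *KIF2C*) and below in all 3 for 2 (*NCAPD2* and *CDC25C*), against 22.7% and 24.7% of tested genes, so most members differed in sign between pairs. No source says that the numbers pair the libraries, so these counts are descriptive.

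The libraries of one genotype differed among themselves by more for these genes than for the median gene. Relative to the *ZK3*-WT mean, the median member of the list stood at 0.27, -0.24 and -0.05 on the log2 scale in the *ZK3*-WT libraries, by replicate number, and at 0.52, 0.68 and -0.30 in the *ZK3*-KO libraries. *ZK3*-KO replicates 1 and 2 thus lay above the *ZK3*-WT libraries and replicate 3 under all of them. Replicate 3 was the lowest *ZK3*-KO library for 50 of 52 members, against 41.4% of all tested genes, and *ZK3*-WT replicate 1 the highest *ZK3*-WT library for 48, against 39.3%. The median SD of log2 CPM among *ZK3*-KO libraries was 0.56 for the members and 0.27 for all tested genes, and among *ZK3*-WT libraries 0.27 and 0.17.

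**Figure D1:**
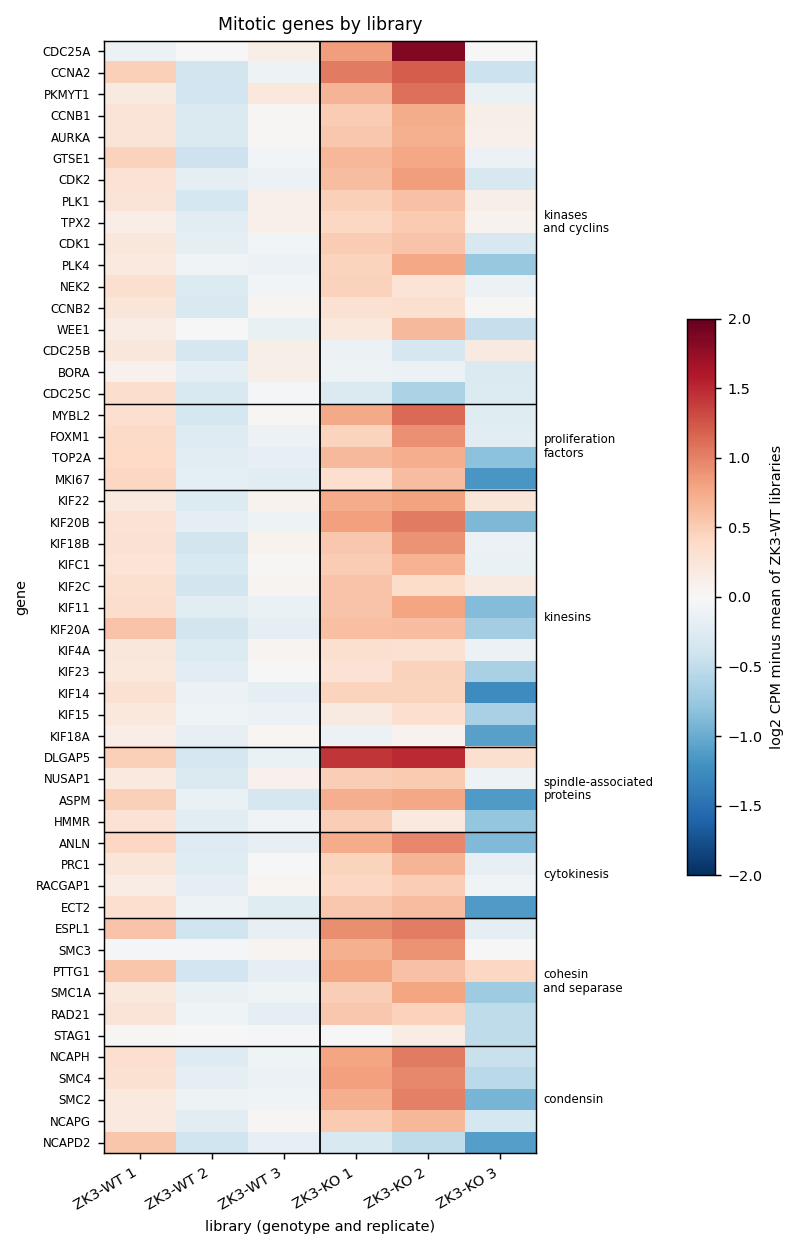
Level of each of the 52 genes (rows, by role) in each of the 6 libraries (columns), as log2 CPM minus the mean of the 3 *ZK3*-WT libraries, with red above and blue below. *ZK3*-KO replicates 1 and 2 are red in most rows, and replicate 3 is blue for 41 of 52 genes.

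*ZK3*-KO replicates 1 and 2 both lay above every *ZK3*-WT library for 42 of the 52 members, against 24.5% of tested genes. Replicate 3 lay below every *ZK3*-WT library for 27, within their range for 24 and above it for 1, against 37.9%, 24.0% and 38.1% of tested genes. Without replicate 3, 25 members passed the threshold upward and 0 downward, beside 7.41% of 18872 tested genes higher and 7.73% lower. As replicate 3 was singled out for its low values in these same genes, these calls are descriptive. Leaving out any other single library gave 0 members past the threshold, and outside DESeq2 and the fit without replicate 3 the lowest adjusted p of any member ran from 0.0935 to 0.444 over 12 alternatives. Which of these libraries reflects the genotype was not tested.

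**Figure D2:**
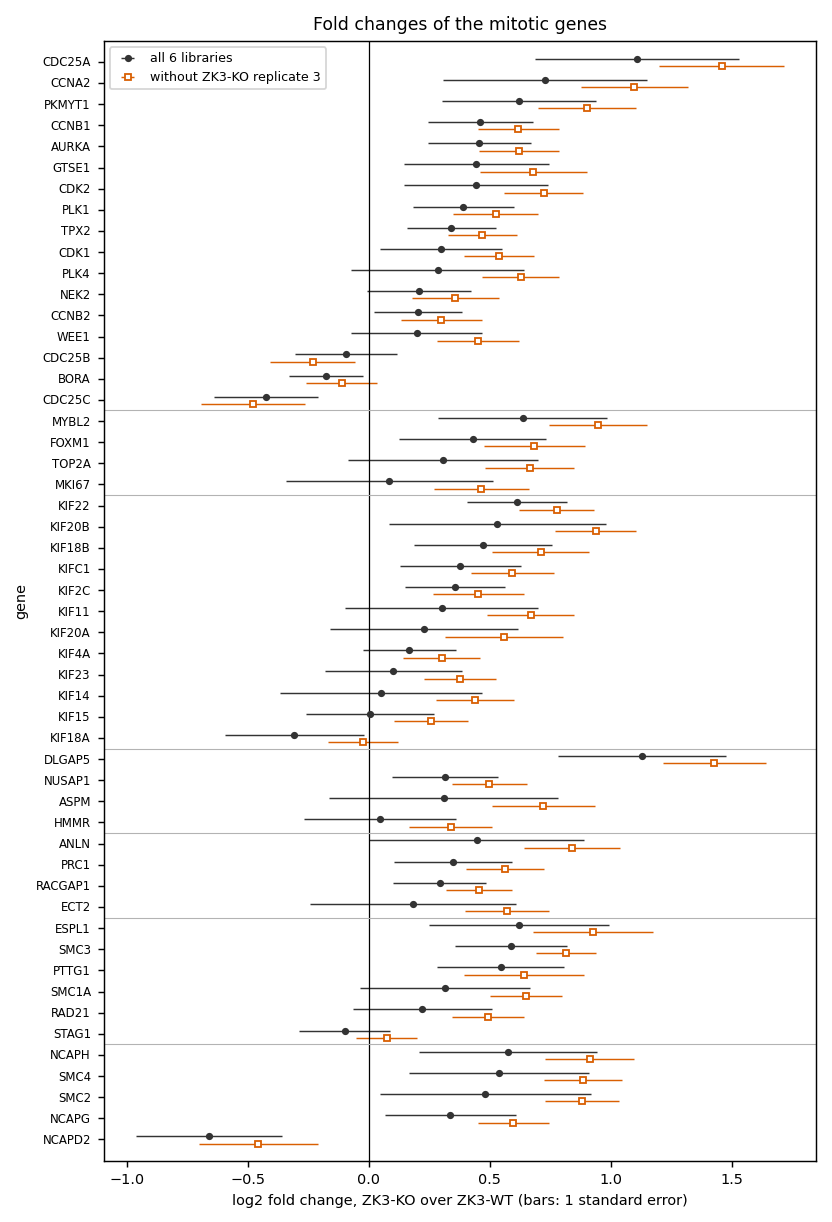
Log2 fold change of *ZK3*-KO over *ZK3*-WT (x axis) for each gene (y axis, by role), from all 6 libraries (filled circles) and without *ZK3*-KO replicate 3 (open squares), with bars of 1 standard error. Most squares lie to the right of their circles, with medians of 0.59 and 0.33, while *CDC25B*, *CDC25C*, *BORA*, *KIF18A* and *NCAPD2* stay below 0 in both.

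Among the 17 kinases, cyclins and regulators, 14 were higher and 3 lower in *ZK3*-KO, none past the threshold, with a median log2 fold change of 0.34 (0.54 without replicate 3). *CDK1*, the kinase that starts mitosis, had levels of 93.6, 70.9 and 77.0 CPM in *ZK3*-WT, in the order of the replicate numbers, and 114, 119 and 64.1 CPM in *ZK3*-KO. Replicates 1 and 2 of *ZK3*-KO were above all *ZK3*-WT libraries and replicate 3 below them. *CDK1* had a log2 fold change of 0.30 (SE 0.25, adjusted p = 0.577), and of 0.54 without replicate 3 (adjusted p = 0.0378). *CCNB1*, which encodes its partner cyclin B1, was at 173, 118 and 148 CPM against 205, 241 and 157 CPM. Here *ZK3*-KO replicate 3 fell inside the *ZK3*-WT range, and the log2 fold change was 0.46 (SE 0.22, adjusted p = 0.314). The B2 cyclin gene *CCNB2* differed less, by 0.20 (SE 0.18), and stayed at 0.30 without replicate 3, which did not pass. *CCNA2*, encoding cyclin A2, was high in the first 2 *ZK3*-KO libraries (106 and 119.6 CPM) and lowest of all 6 libraries in the third (38.1 CPM), and *CDK2*, the kinase it binds in S phase, followed the same order at 107, 124.7 and 55.9 CPM.

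The 3 CDC25 phosphatases, which remove the inhibitory phosphates from CDKs, had fold changes of either sign. *CDC25A* was measured at 15.9, 17.1 and 18.9 CPM in *ZK3*-WT and at 31.3, 63.3 and 17.2 CPM in *ZK3*-KO. Its groups overlapped only through *ZK3*-KO replicate 3. It had the highest fold change of the kinases, cyclins and regulators, at 1.11 on the log2 scale (SE 0.42, adjusted p = 0.228). *CDC25C* was at 25.1, 15.9 and 19.0 CPM against 16.0, 12.5 and 16.1 CPM, with 2 of the *ZK3*-KO libraries just above the lowest *ZK3*-WT library and a log2 fold change of -0.42 (SE 0.21, adjusted p = 0.346). *CDC25B* overlapped throughout, with 202 to 298 CPM in *ZK3*-WT and 203 to 288.5 CPM in *ZK3*-KO. *CDC25B* and *CDC25C* were also the only members whose level in *ZK3*-KO replicate 3 was the highest of the *ZK3*-KO libraries. The kinases that oppose CDC25 gave log2 fold changes of 0.20 for *WEE1* (SE 0.27) and 0.62 for *PKMYT1* (SE 0.32), of which *PKMYT1* passed only without replicate 3 (0.90, adjusted p = 0.0218).

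*PLK1*, the polo kinase of centrosomes and kinetochores, was measured at 126, 82.6 and 113 CPM in *ZK3*-WT and at 147.5, 159 and 115 CPM in *ZK3*-KO. *AURKA*, the Aurora kinase of spindle poles, was at 70.4, 48.4 and 60.1 CPM against 86.1, 96.4 and 63.0 CPM. For both genes 2 of 3 *ZK3*-KO libraries lay above *ZK3*-WT and replicate 3 within it, with log2 fold changes of 0.39 (SE 0.21, adjusted p = 0.371) for *PLK1* and 0.46 (SE 0.21, adjusted p = 0.308) for *AURKA*. *TPX2*, the activator of Aurora A on the spindle, differed by 0.34 (SE 0.18), and *BORA*, which activates PLK1 through Aurora A, by -0.18 (SE 0.15), or by 0.47 and -0.11 without replicate 3. *PLK4*, the kinase of centriole duplication, *NEK2*, a kinase of centrosome separation, and *GTSE1*, a microtubule-associated protein of the G2 phase, had values of 0.29, 0.21 and 0.44 (SE 0.36, 0.21 and 0.30), or of 0.63, 0.36 and 0.68 without replicate 3. Without replicate 3, 8 of the 17 passed upward, namely *CDK1*, *CDK2*, *CCNA2*, *CCNB1*, *CDC25A*, *PKMYT1*, *PLK4* and *AURKA*, and *PLK1* did not (adjusted p = 0.0750). Of all genes tested in that fit, 7.41% passed upward. Replicate 3 was singled out by these same genes, so the calls are descriptive.

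**Figure D3:**
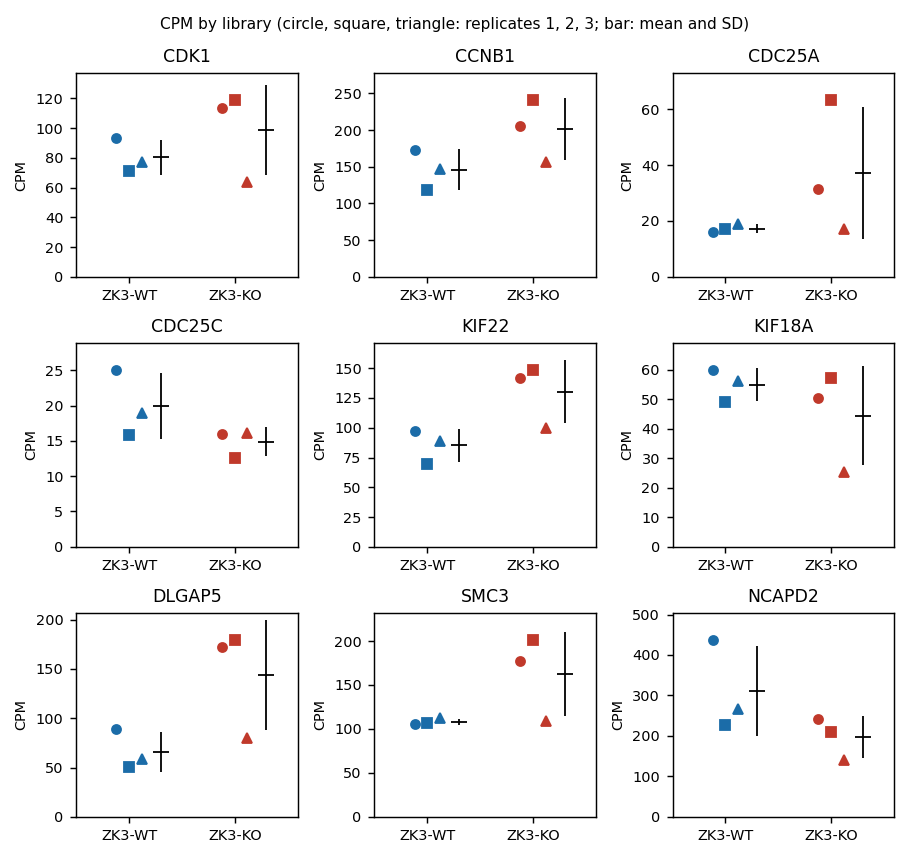
CPM of 9 members (one panel each, y axis from 0) in the 3 *ZK3*-WT (blue) and 3 *ZK3*-KO (red) libraries, with circles, squares and triangles for replicates 1, 2 and 3 and bars for mean and SD. The *ZK3*-KO triangle is the lowest *ZK3*-KO point in 8 of the 9 panels, the exception being *CDC25C*, and only *KIF22* has groups that do not overlap.

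The 4 proliferation factors were all higher on average and none passed, with a median of 0.37 (0.67 without replicate 3). *MKI67*, the gene of the Ki-67 antigen that coats mitotic chromosomes, was measured at 864, 572 and 554 CPM in *ZK3*-WT and at 822, 998 and 289.8 CPM in *ZK3*-KO. The *ZK3*-KO libraries lay on both sides of all *ZK3*-WT libraries, with a log2 fold change of 0.08 (SE 0.43, adjusted p = 0.941) that turned to -0.067 on the log2(CPM + 1) scale. *TOP2A*, encoding the topoisomerase that untangles sister chromatids, was at 259, 169 and 175 CPM against 309, 325 and 112 CPM, with a log2 fold change of 0.31 (SE 0.39, adjusted p = 0.731). Replicate 3 was again the lowest of the 6. *FOXM1*, the transcription factor of late cell cycle genes, was at 109, 70.4 and 77.5 CPM against 115, 159.5 and 72.3 CPM (0.43, SE 0.30, adjusted p = 0.50). *MYBL2*, which acts with MuvB, had the highest fold change of the 4, with 90.4, 55.7 and 72.2 CPM against 121, 158 and 60.1 CPM (0.64, SE 0.35, adjusted p = 0.383). *TOP2A* and *MYBL2* passed without replicate 3, at 0.66 and 0.95 (adjusted p = 0.0419 and 0.0179), and *FOXM1* did not (adjusted p = 0.0569). As replicate 3 was singled out by these same genes, the calls are descriptive, and 7.41% of all tested genes passed upward in that fit.

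Of the 12 mitotic kinesins, 11 were higher and 1 lower, none past the threshold, with a median log2 fold change of 0.26 (0.51 without replicate 3). *KIF22*, the chromokinesin that pushes chromosome arms from the poles, was measured at 97.1, 69.8 and 88.9 CPM in *ZK3*-WT and at 142, 149 and 99.9 CPM in *ZK3*-KO. It was the only member with every *ZK3*-KO library above every *ZK3*-WT library, with a log2 fold change of 0.61 (SE 0.21, adjusted p = 0.187), though the lowest *ZK3*-KO library was close to the highest *ZK3*-WT one. *KIF11*, the motor that separates spindle poles, was at 88.4, 59.2 and 63.4 CPM against 103, 119.6 and 37.6 CPM, and *KIF23*, the motor of the central spindle, at 115, 86.0 and 99.8 CPM against 122, 137 and 63.5 CPM. Both spanned the *ZK3*-WT range, with log2 fold changes of 0.30 (SE 0.40, adjusted p = 0.739) and 0.10 (SE 0.28, adjusted p = 0.884). *KIF18A*, which limits the swing of chromosomes at the spindle equator, was the only kinesin lower on average. It was at 60.0, 48.9 and 56.1 CPM against 50.5, 57.3 and 25.5 CPM, and its log2 fold change was -0.31 (SE 0.29, adjusted p = 0.618) with replicate 3 and -0.02 without it.

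The other kinesins ranged from 0.00 for *KIF15* and 0.05 for *KIF14* to 0.53 for *KIF20B*, with *KIF4A*, *KIF20A*, *KIF2C*, *KIFC1* and *KIF18B* between them. *KIF11*, *KIF18B*, *KIF20B*, *KIF22* and *KIFC1* passed the threshold without replicate 3, with log2 fold changes of 0.67, 0.71, 0.94, 0.78 and 0.59. That fit called 7.41% of all tested genes higher and 7.73% lower. *KIF4A* has a near-identical copy, *KIF4B*, but that gene held only 2 to 5 reads per library. Of 30 other kinesin genes, most of them motors of cargo transport, 26 were tested, 12 higher and 14 lower with a median of -0.02, 1 of them past the threshold. Without replicate 3 the median was 0.01, with 4 past the threshold upward and 3 downward. The 1 gene called with all libraries, *KIF1A*, a motor of synaptic vesicle precursors in neurons, rose from 0.18 ± 0.02 to 2.38 ± 1.71 CPM (SD, n = 3), a log2 fold change of 3.73 (SE 0.59, adjusted p = 0.0280), and of 2.99 without replicate 3.

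All 4 spindle-associated genes were higher on average and none passed, with a median of 0.31 (0.61 without replicate 3). *DLGAP5*, a microtubule-bundling protein of kinetochore fibres also known as HURP, was measured at 88.8, 50.5 and 58.1 CPM in *ZK3*-WT and at 172, 179.7 and 80.0 CPM in *ZK3*-KO. *ZK3*-KO was above *ZK3*-WT for each replicate number, and the groups overlapped because *ZK3*-KO replicate 3 was below *ZK3*-WT replicate 1. Its log2 fold change of 1.13 (SE 0.35, adjusted p = 0.155) was the highest of the 52 members, and the gene was past the threshold by DESeq2 (adjusted p = 0.0288), which called 8.20% of tested genes and no other member, and without replicate 3 (1.43, adjusted p = 0.00475). *DLGAP5* lies on chromosome 14, where 404 of 504 tested genes were higher in *ZK3*-KO with a median log2 fold change of 0.51, and 53 passed upward, and the part of the chromosome in its value was not tested. *HMMR*, a spindle pole protein, was at 92.7, 65.4 and 72.2 CPM against 106, 86.8 and 44.3 CPM, with the *ZK3*-KO libraries on both sides of *ZK3*-WT (0.04, SE 0.31, adjusted p = 0.959), and its fold change was 0.34 without replicate 3. *NUSAP1* and *ASPM*, which bind spindle microtubules and spindle poles, both had a log2 fold change of 0.31 (0.50 and 0.72 without replicate 3), but the *ZK3*-KO libraries of *ASPM* ran from 38.4 to 145 CPM and those of *NUSAP1* from 109 to 168 CPM.

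The 4 cytokinesis genes had a median of 0.32 on the log2 scale (0.57 without replicate 3), none past the threshold. For all 4 the *ZK3*-KO replicates 1 and 2 lay above every *ZK3*-WT library, against 24.5% of tested genes. With replicate 3, the groups overlapped for each of them. *ANLN*, encoding the anillin scaffold of the contractile ring, was measured at 169.9, 106 and 113 CPM in *ZK3*-WT and at 214, 248.8 and 68.3 CPM in *ZK3*-KO. *ECT2*, the exchange factor that activates RhoA at the cleavage site, was at 146, 108 and 97.3 CPM against 168, 178 and 52.6 CPM. In both genes replicate 3 was the lowest of the 6 libraries, and the log2 fold changes were 0.45 (SE 0.44, adjusted p = 0.644) and 0.18 (SE 0.43, adjusted p = 0.857). *RACGAP1*, which forms the centralspindlin complex with KIF23, was at 124, 97.7 and 115 CPM against 149, 157 and 106 CPM, with the lowest p of the 4 (0.29, SE 0.19, adjusted p = 0.466). *PRC1*, which bundles midzone microtubules, differed by 0.35 (SE 0.24), and *PRC1* and *ANLN* passed without replicate 3 (0.56 and 0.84, adjusted p = 0.0468 and 0.0244). In that fit 7.41% of all tested genes passed upward. Of 13 other cytokinesis genes, 9 were higher and 4 lower with a median of 0.07, none past the threshold with or without replicate 3.

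In the cohesin group 5 genes were higher and 1 lower, with a median of 0.43 (0.65 without replicate 3) and none past the threshold. *SMC3*, a core subunit of the ring, was measured at 106, 107 and 112 CPM in *ZK3*-WT and at 178, 201.5 and 109 CPM in *ZK3*-KO. The *ZK3*-WT libraries lay close together, replicates 1 and 2 of *ZK3*-KO far above them and replicate 3 among them, with a log2 fold change of 0.59 (SE 0.23, adjusted p = 0.237). Its ring partner *SMC1A* gave 0.31 (SE 0.35) and the kleisin *RAD21* 0.22 (SE 0.29). *STAG1*, a subunit that docks on the ring, was at 70.3, 69.0 and 68.0 CPM against 68.5, 76.4 and 48.4 CPM, with a log2 fold change of -0.10 (SE 0.19, adjusted p = 0.818). *ESPL1*, the separase that cuts cohesin, was at 89.5, 45.2 and 53.4 CPM against 114.5, 122 and 52.5 CPM (0.62, SE 0.37, adjusted p = 0.422), and *PTTG1*, its inhibitor securin, differed by 0.55 (SE 0.26). *SMC3*, *SMC1A* and *ESPL1* passed without replicate 3, where 7.41% of all tested genes passed upward and 7.73% downward. The copies *PTTG2* and *PTTG3P* held at most 5 reads per library. Of 15 other cohesin genes and regulators, 8 were higher and 7 lower, with a median of 0.04 and none past the threshold. Without replicate 3 their median was 0.12, and the cohesion genes *ESCO2* (1.17) and *CDCA5* (0.84) passed upward and the meiotic kleisin *REC8* (-1.42) downward.

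Of the 5 condensin genes, 4 were higher and 1 lower, with a median of 0.48 (0.88 without replicate 3, and 0.14 without *ZK3*-KO replicate 2) and none past the threshold. *SMC2*, of the ATPase pair that drives the complex, was measured at 40.6, 33.1 and 33.4 CPM in *ZK3*-WT and at 59.2, 71.8 and 18.4 CPM in *ZK3*-KO. The *ZK3*-KO libraries lay on both sides of *ZK3*-WT, with a log2 fold change of 0.48 (SE 0.44, adjusted p = 0.606). *NCAPH*, the kleisin of condensin I, was at 64.2, 42.2 and 47.9 CPM against 88.1, 104.6 and 37.0 CPM (0.57, SE 0.37, adjusted p = 0.454). *NCAPD2*, a HEAT-repeat subunit of the same complex, was lower on average, at 438, 227 and 267 CPM against 240.5, 209.7 and 139 CPM. One *ZK3*-KO library lay above the lowest *ZK3*-WT library, and the log2 fold change was -0.66 (SE 0.30, adjusted p = 0.301), the lowest of the 52 members. *SMC2*, *SMC4*, *NCAPG* and *NCAPH* passed upward without replicate 3, at 0.88, 0.89, 0.60 and 0.91, and *NCAPD2* did not pass in either fit (-0.46, adjusted p = 0.236). Upward calls without replicate 3 made up 7.41% of all tested genes. The 5 genes of condensin II and of the SMC5/6 complex had a median of 0.34, with 3 higher and 2 lower and none past the threshold. Without replicate 3 their median was 0.54, and the condensin II subunits *NCAPD3* (0.83, adjusted p = 0.0145) and *NCAPG2* (0.73, adjusted p = 0.0365) passed upward.

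Per transcript length, the highest levels among the members in *ZK3*-WT were those of *RAD21* at 217 ± 33.7 TPM (the deposited values, scaled by transcript length and depth, SD, n = 3), *CDC25B* at 176 ± 32.6 TPM and *CCNB1* at 152 ± 25.8 TPM, each within 1 SD of its neighbour's range. The lowest were *CDC25A* at 9.59 ± 0.83 TPM and, above it by more than their SDs, *SMC2* at 13.0 ± 1.48 TPM. Of 20 other regulators of mitotic entry and exit that were tested, 12 were higher and 8 lower with a median of 0.13 and none past the threshold, the lowest p being that of the CDK subunit gene *CKS2* (0.75, SE 0.16, adjusted p = 0.0702). Without replicate 3 their median was 0.12 and 6 passed upward, *CKS2* among them (0.83, adjusted p = 0.00922). In that fit 7.41% of all tested genes passed upward and 7.73% downward. Of 11 MuvB, DREAM and E2F genes, one passed. *LIN52*, a MuvB subunit gene that like *DLGAP5* lies on chromosome 14, was upregulated by 1.13 on the log2 scale (SE 0.17, adjusted p = 0.0254), with 12.5 ± 1.47 CPM in *ZK3*-WT and 27.2 ± 3.27 CPM in *ZK3*-KO (SD, n = 3). Without replicate 3, 3 of the 11 passed upward, *LIN52* among them at 1.23, and 1 downward, with a median of 0.25 in place of 0.06.

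The distance of *ZK3*-KO replicate 3 from the other *ZK3*-KO libraries was not the same for all members. As log2 CPM against the mean of replicates 1 and 2, it ran from -1.88 for *ASPM*, -1.84 for *KIF20B* and -1.80 for *SMC2* to -0.18 for *BORA*, 0.18 for *CDC25C* and 0.40 for *CDC25B*, with a median of -0.93 beside 0.01 for all tested genes. Genes with longer transcripts were further down. Across the 52 genes, which share the libraries, this distance had a Pearson correlation of -0.62 and a Spearman correlation of -0.62 with the log2 length of the canonical transcript, and across 15715 tested genes with a length -0.25 and -0.29. The 26 members with transcripts of 715 to 3473 bp had a median distance of -0.57, and the 26 members of 3552 to 12716 bp one of -1.35. All tested genes in those length ranges had medians of 0.13 and -0.19, so the members lay below genes of like length in both. The log2 fold change over all 6 libraries had a correlation of -0.10 with length among the members. What part transcript length or RNA quality had in the level of replicate 3 was not tested.

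**Figure D4:**
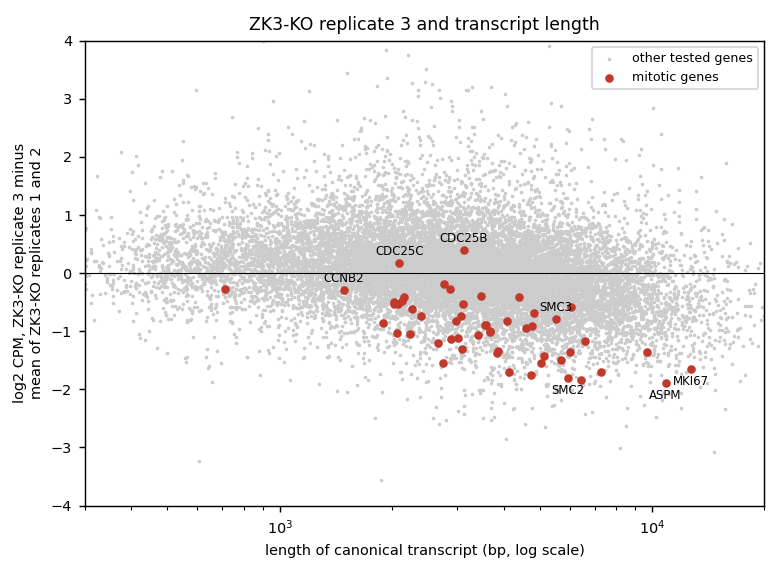
Distance of *ZK3*-KO replicate 3 from the mean of *ZK3*-KO replicates 1 and 2 (y axis, log2 CPM) against the length of the canonical transcript (x axis, bp, log scale) for the 52 mitotic genes (red) and other tested genes (grey), of which 122 points lie outside the axes. Red points lie below 0 for 50 of 52 genes and lower at the right, with medians of -0.57 in the shorter and -1.35 in the longer 26.

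Because the members' levels varied together from library to library, each was also set against the median of the 52 in its own library, a measure that hardly depends on the scaling of a library. The median within-group SD of the members was then 0.21 in place of 0.45 on the log2 scale, while that of all tested genes went from 0.24 to 0.48. The fall for the members and the rise for all genes follow largely from the measure, which subtracts the members' own median from every gene. On this measure 1 member lay above without overlap, where 1.25% of all tested genes did, and 6 lay below, where 13.1% did, so the share below was near that of all genes. These shares of all genes are shaped by the same reference. *DLGAP5* stood at -0.02, -0.26 and -0.23 in *ZK3*-WT and 0.62, 0.57 and 0.42 in *ZK3*-KO, a difference of 0.71, so its 3 libraries of each genotype lay close together. *NCAPD2* stood at 2.28, 1.90 and 1.96 against 1.10, 0.79 and 1.22, a difference of -1.01. *KIF18A* stood at -0.58, -0.30 and -0.28 against -1.14, -1.07 and -1.21, a difference of -0.75. The values describe these 3 genes and set the list apart in nothing. The other 4 were *KIF14* (-0.49), *KIF15* (-0.42), *HMMR* (-0.40) and *KIF23* (-0.34), and *KIF22* overlapped on this measure (0.23). With 3 libraries against 3, an exact permutation test of a single value cannot go below p = 0.1, and these differences were given no test.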

How the data were processed

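Total RNA of HCT116 cells was made into stranded paired-end mRNA libraries, 3 per genotype. The authors deposited 1 table with the count of reads per gene, not normalized, after alignment with Bowtie 2 (version 2.2.5 in the submitters' processing notes) to hg19. The authors also deposited TPM values, scaled by transcript length and depth, which were used for levels between genes and in 1 alternative, and FPKM values, which were not used. The study's methods name an Ensembl annotation, whereas the table holds NCBI Gene identifiers and RefSeq transcripts, and TPM values modelled by ANOVA, in place of which the counts were tested here.

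Counts were fitted in R 4.3.3 with edgeR 4.0.16 (filterByExpr, TMM factors of 0.910 to 1.04, quasi-likelihood test with genotype as the only factor), and all adjusted p-values in the text are Benjamini-Hochberg values over all tested genes with a threshold of 0.05. The SE is the log2 fold change divided by the root of the F statistic. Log2 levels are of CPM + 0.5. The alternatives were DESeq2 1.42.0, library totals, upper-quartile factors, a looser filter (1 read over all libraries) and a stricter one (10 reads per library), limma 3.58.1 on log2(CPM + 1) and log2(TPM + 1), the replicate number as a block, and each library left out in turn.

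Libraries that share a replicate number departed from their group means in the same direction across genes, with correlations of 0.294, 0.112 and 0.449. The numbers were therefore taken to pair the libraries in the block alternative and in the comparison by replicate number, but not in the main test. No source says what they mark. Different numbers gave -0.343 to 0.209, the highest for *ZK3*-WT replicate 1 with *ZK3*-KO replicate 2. That value is above the 0.112 of the libraries numbered 2, so the pairing is uncertain for them. No library was a copy of another, since counts of any 2 replicates differed far beyond sampling noise (chi-square per degree of freedom 41.5 to 543, highest for pairs with *ZK3*-KO replicate 3).

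The 52 genes, the 6 lists of other genes and the rule for naming genes were chosen with earlier results of these data known, and the motif, length and relative-level descriptions after values were seen. The rule writes out fixed anchors of each role, the members with the highest and lowest fold change and lowest p of each role, members past the threshold and members without overlap, and of other genes those past the threshold or with the lowest p of their list. Other genes named for the fit without *ZK3*-KO replicate 3, and the marker *COL1A1*, were chosen after their values were seen. Of 164 list entries, 161 were found under their own symbol and 3 under an older one. Transcript lengths (Ensembl canonical) and chromosomes came from a GRCh37 annotation, and promoters from a RefSeq table of GRCh38.p14. The fits were tested on simulated counts drawn independently for each gene, with no library that stood apart. That test does not cover genes that move together or a library like *ZK3*-KO replicate 3.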

Additional observations from a re-analysis of the deposited data

How the results depend on the processing

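No member was past the threshold in any alternative but DESeq2, which called 1 (*DLGAP5*), and the fit without *ZK3*-KO replicate 3. Over the fits that left out 1 library, the number of members called ran from 0 to 25, and the number of all genes called from 49 to 2858, beside 376 with all libraries and 1506 by DESeq2. The lowest of these was without *ZK3*-WT replicate 2 and the highest without *ZK3*-KO replicate 3, and fits without *ZK3*-WT replicate 1, *ZK3*-WT replicate 3, *ZK3*-KO replicate 1 and *ZK3*-KO replicate 2 called 67, 57, 74 and 158 genes. The medians stayed above 0 in all 14 alternatives but moved widely, with 0.15 to 0.59 for the members, 0.21 to 0.54 for kinases and cyclins, 0.10 to 0.67 for proliferation factors, 0.05 to 0.51 for kinesins, 0.09 to 0.61 for spindle-associated genes, 0.14 to 0.57 for cytokinesis, 0.24 to 0.65 for cohesin and 0.14 to 0.88 for condensin. Without *ZK3*-KO replicate 2 the medians of kinesins, proliferation factors and condensin were 0.07, 0.10 and 0.14. The scale of log2(TPM + 1) shifted the median of all genes by -0.10 and left the members' median at 0.15, 0.24 above that of all genes, beside 0.31 above it with the edgeR fit.

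With the replicate block, 0 members were called, the members' median was 0.28 and the lowest adjusted p was 0.0935 (*DLGAP5*), so the block changed no member's call. It reversed *MKI67* (-0.067), *KIF14* (-0.12), *KIF15* (-0.049) and *HMMR* (-0.029), all near 0 to begin with.

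The sign of the fold change held in every alternative for 40 members and turned in at least 1 for 12, for which the cause was not tested. Library totals alone gave *KIF14* -0.0045, *KIF15* -0.063 and *HMMR* -0.016. Upper-quartile factors gave *KIF15* -0.030, and the filter of 10 reads in every library gave it -0.0042. Limma on log2(CPM + 1) gave *MKI67* -0.067, *KIF14* -0.12, *KIF15* -0.047 and *HMMR* -0.030. On log2(TPM + 1), *MKI67* was -0.18, *KIF14* -0.20, *KIF15* -0.15, *KIF23* -0.094, *HMMR* -0.15, *ASPM* -0.0030 and *ECT2* -0.10. Leaving out 1 library at a time gave ranges across 0 of -0.25 to 0.019 for *CDC25B*, -0.090 to 0.45 for *WEE1*, -0.046 to 0.63 for *PLK4*, -0.25 to 0.46 for *MKI67*, -0.0027 to 0.67 for *KIF11* and -0.18 to 0.44 for *KIF14*. The same fits gave -0.19 to 0.26 for *KIF15*, -0.11 to 0.38 for *KIF23*, -0.22 to 0.34 for *HMMR*, -0.083 to 0.57 for *ECT2* and -0.24 to 0.075 for *STAG1*. Of the 11 genes in these ranges, all but *CDC25B* and *HMMR* were lowest without *ZK3*-KO replicate 2 and highest without *ZK3*-KO replicate 3.

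Depth did not limit the members, each with at least 870 reads per library. The interval of 2 SE around the log2 fold change ran from -0.21 to 0.80 for *CDK1* and from -0.77 to 0.94 for *MKI67*. Neither interval excluded an absence of change, nor the larger changes up to its bounds.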
